A study of Mus musculus with 40 samples.

Results

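The regions described here were 10-kb windows of the mouse genome that lie wholly inside the body of a gene highly transcribed in the oocyte, and the quantity followed in them was dimethylation of lysine 9 of histone H3 (H3K9me2). Windows were chosen by RNA: an autosomal window was a member when it fell entirely within a transcribed locus whose mean over 6 control RNA libraries was at least 5 on the log2 scale, that is 32 reads per 1000000 (RPM). This gave 28237 member windows out of 245905 autosomal windows (11.5%) and 272158 windows in all. They lay in 4068 host loci, of which 3408 carried a gene name. A locus took the name of a gene that it overlapped on the same strand, so a locus can extend beyond that gene. A host held a median of 4 member windows and at most 113, and windows of 1 host share it. Of the members, 1806 (6.40%) also overlapped a locus on the other strand. A further 1250 loci passed the RNA threshold and were too short or badly placed to hold a whole window. The control RNA values chose the members, so the RNA level of the hosts is description only and no test was made on it.

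Every sample was a pool of 100 to 200 germinal-vesicle oocytes, the grown oocytes of the ovary before meiotic maturation, dissected by hand from mice aged 22 to 25 days. For H3K9me2, chromatin was precipitated without crosslinking, by a protocol for very small cell numbers and with a mouse monoclonal antibody. There were 2 control libraries, 2 from oocytes in which G9a had been deleted conditionally (G9a cKO) and 2 in which G9a and Glp had both been deleted (cDKO, or G9a-Glp cDKO in the labels). RNA came from 6 controls (3 with the title prefix GKAO and 3 with GKAQ), 3 G9a cKO libraries with the GKAO prefix and 2 cDKO libraries with the GKAQ prefix. The labels name neither the Cre driver that makes the deletions conditional nor the number of animals per pool, and no H3K9me2 library carries a line prefix. The p-values therefore measure the spread between these samples only, and line cannot be told apart from genotype in the H3K9me2 contrasts.

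H3K9me2 is laid down by the enzymes G9A (gene Ehmt2) and GLP (gene Ehmt1), which in most cells act as a pair, and it is usually associated with silent chromatin. Transcribed gene bodies carry methylation of lysine 36 of the same histone, and in growing oocytes they are also the main places where DNA becomes methylated. Maps of H3K9me2 usually show broad domains that lie away from active gene bodies.

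The libraries differed in depth. Recovered totals were 7048784 and 19128881 reads for the controls, 1857144 and 1109191 for G9a cKO, and 1723142 and 1881848 for cDKO. The median member window held 24 and 64 reads in the controls, 7 and 4 in G9a cKO, with 7 and 8 in cDKO. For that reason windows were summed, over all members or over a host, before groups were compared. Of the members, 57 had no read in any library, and these were kept at 0 in the sums. Replicates of each genotype differed by more than sampling noise (chi-square per degree of freedom of 1.08, 1.13 and 1.08) and none were merged.

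The targeted genes and the cell type were examined in the RNA libraries. Ehmt1, itself a host of 11 member windows, had 104 to 173 reads in the 6 controls, 139 to 166 in G9a cKO, with 31 and 36 in cDKO. Ehmt2 had 8 to 30 reads in the controls, 5, 11 and 2 in the G9a cKO libraries and 5 in each cDKO library, so the library labelled G9a cKO replicate 2 lay within the range of the controls. RNA and H3K9me2 came from separate samples, so these reads do not check the genotype of the H3K9me2 libraries. All 8 oocyte markers lay above the RNA threshold (6.64 to 12 log2 RPM in controls). Of 12 granulosa cell markers, 2 did, Esr2 at 6.33 and Cyp19a1 at 5.46, and 1 had at most 3 reads in every library. Summed granulosa marker RNA was 150 to 175 RPM in controls, 132 to 158 in G9a cKO and 170 to 183 in cDKO, and its part in the results below was not tested.

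Hosts that could be matched to a promoter mostly had one rich in CG dinucleotides. Of the 3408 named hosts, 1978 could be matched to a RefSeq promoter (GRCm38.p6, 250 bases before to 50 after the start) that lay within 1000 bases of the start of the locus. These promoters held a median of 25 CG per 300 bases, against 7 over all 32851 promoters of the table, and 90.8% held at least 10 CG against 43.5% of all promoters. The motif counted was CG, which reads the same on both strands. The hosts with the most RNA departed from this: of the 6 that matched among the 8 described below, 4 had under 10 CG, against 9.15% of all matched hosts. The promoters of a pair of such hosts, Dnmt1 and Nlrp5, are shown beside those of a pair of hosts whose H3K9me2 rose most among those with a matched promoter, Map3k4 in G9a cKO and Lrp1 in cDKO. Each is written 5′ to 3′ along the gene, with every CG in capitals.
Dnmt1: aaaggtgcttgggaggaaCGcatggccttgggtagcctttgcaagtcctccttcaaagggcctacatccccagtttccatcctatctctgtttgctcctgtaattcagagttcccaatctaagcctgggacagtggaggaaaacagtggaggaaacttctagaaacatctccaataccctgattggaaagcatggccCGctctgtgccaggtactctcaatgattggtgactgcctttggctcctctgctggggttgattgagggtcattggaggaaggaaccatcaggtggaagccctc
Nlrp5: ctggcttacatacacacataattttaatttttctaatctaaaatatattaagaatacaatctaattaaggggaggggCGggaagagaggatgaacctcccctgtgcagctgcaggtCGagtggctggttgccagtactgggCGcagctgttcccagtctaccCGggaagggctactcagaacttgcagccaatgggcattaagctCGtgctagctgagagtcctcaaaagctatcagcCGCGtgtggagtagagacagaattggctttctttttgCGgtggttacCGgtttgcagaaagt
Map3k4: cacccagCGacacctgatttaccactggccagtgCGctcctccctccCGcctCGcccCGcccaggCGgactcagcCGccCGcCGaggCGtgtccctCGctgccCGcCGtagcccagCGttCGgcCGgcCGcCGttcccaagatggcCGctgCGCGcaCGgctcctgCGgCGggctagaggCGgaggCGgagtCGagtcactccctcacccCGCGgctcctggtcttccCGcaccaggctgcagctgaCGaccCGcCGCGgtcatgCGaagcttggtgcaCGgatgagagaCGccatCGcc
Lrp1: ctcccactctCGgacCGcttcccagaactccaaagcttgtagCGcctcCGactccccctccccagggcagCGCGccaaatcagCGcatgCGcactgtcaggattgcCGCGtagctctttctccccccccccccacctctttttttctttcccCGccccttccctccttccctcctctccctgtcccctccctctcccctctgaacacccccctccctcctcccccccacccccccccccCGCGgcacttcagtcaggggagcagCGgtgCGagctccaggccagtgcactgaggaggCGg
Dnmt1 held 2 CG in this stretch (chr9:20959839-20960138, minus strand) and Nlrp5 held 9 (chr7:23385639-23385938, plus strand). Map3k4 held 38 (chr17:12318611-12318910, minus strand) and Lrp1 held 16 (chr10:127621099-127621398, minus strand). Among hosts with at least 3 member windows, the median H3K9me2 of the gene body relative to the autosomal mean was 0.881 and 0.877 in the 2 controls for the 100 hosts with under 10 CG, and 0.838 and 0.814 for the 677 with 25 or more. In cDKO the same classes had 1.11 and 1.07, and 1.10 and 1.10. The cDKO libraries thus lay above the controls in the CG-poor and in the CG-rich class.

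In control oocytes the highly transcribed gene bodies held less H3K9me2 than the mean of the genome, and in both mutants the same windows lay above it. Relative density, the mean RPM of the member windows divided by the mean RPM of all autosomal windows of the same library, was 0.893 and 0.876 in the controls, 1.03 and 1.05 in G9a cKO, with 1.14 and 1.11 in cDKO. The 3 genotypes did not overlap, with the controls lowest and cDKO highest. Group means were 0.884 ± 0.0124 (SD, n = 2), 1.04 ± 0.0162 (SD, n = 2) and 1.13 ± 0.0193 (SD, n = 2). The difference from control was 0.23 on the log2 scale, or 1.17-fold, in G9a cKO and 0.35, or 1.27-fold, in cDKO. The cDKO libraries exceeded the G9a cKO libraries by 0.12, or 1.08-fold. Each difference was larger than the spread between replicates (log2 SD of 0.0202 to 0.0247), and each had an exact two-sided permutation p of 0.333, the smallest that 2 libraries against 2 can give. Both mutant contrasts share the same 2 control libraries.

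In other terms, members took 10.3% and 10.1% of autosomal reads in the controls, 11.8% and 12% for G9a cKO and 13.1% and 12.8% for cDKO, from 11.5% of the windows. In the controls 68.9% and 72.7% of member windows lay below the median autosomal window of their library. Over all autosomal windows the share was 49.1% and 48.1%, less than an even split because some windows tie with the median. In G9a cKO 38.0% and 41.8% of member windows lay below it, against 41.8% and 45.6% of all windows, and in cDKO 29.6% and 33.9%, against 40.0% and 42.6%. Members thus lay below the median more often than all windows in the controls and less often in the mutants. Ties were common in the shallow mutant libraries, where 11.7% to 15.8% of member windows equalled the median.

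These values are relative. Every library was scaled to its own reads, so they describe where the recovered reads lay and not how much H3K9me2 there was. A loss of the mark elsewhere raises the member windows in the same way as a gain inside them. No library of input DNA or of control IgG was analysed here. The values are thus not corrected for how well each window is recovered, and the share of background reads in each library was not measured.

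Silent gene bodies and windows outside all loci moved the opposite way, while other windows inside loci or across a locus edge were also higher in the mutants, with group means of 1.01 and 1.02 for the controls, 1.06 and 1.11 for G9a cKO and 1.07 and 1.09 for cDKO. Windows inside silent annotated loci, those with a gene name and no overlapping locus at or above 0 log2 RPM in controls (6550 windows), had relative densities of 1.08 and 1.09 in the controls, 0.953 and 0.980 in G9a cKO, with 0.987 and 1.03 in cDKO. Windows outside every locus of the RNA table (131144 windows) had 1.01 and 1.01, 0.947 and 0.936, and 0.918 and 0.931. As a log2 ratio to the silent gene bodies, the member windows lay at −0.28 and −0.32 in the controls, 0.11 and 0.10 in G9a cKO, with 0.21 and 0.12 in cDKO. As a log2 ratio to windows outside all loci they lay at −0.17 and −0.21, 0.11 and 0.16, and 0.31 and 0.26. In both ratios the 2 controls were below 0 and the 4 mutant libraries above it, and the exact two-sided sign permutation over 6 libraries gave p = 0.938 and p = 0.438. That test pools genotypes of opposite sign and says nothing about any one of them. Expressed gene bodies thus lay below silent ones in the controls and above them in the mutant libraries.

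**Figure D1:**
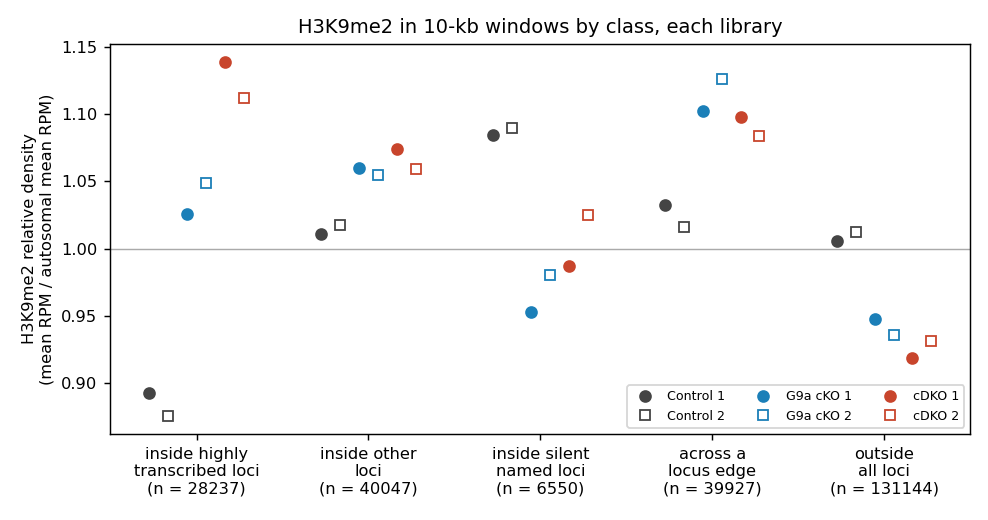
H3K9me2 relative density (vertical axis, mean RPM of the windows divided by the autosomal mean RPM of the library) for 5 classes of 10-kb windows (horizontal axis, with the number of windows), 1 point per library. The 2 control points for highly transcribed loci lie at 0.893 and 0.876, below every other point of the plot, and the 2 cDKO points at 1.14 and 1.11.

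In the controls, the more a host was transcribed the less H3K9me2 its body held. Across members, control density fell from 0.924 in hosts at 5 to 6 log2 RPM through 0.881, 0.869 and 0.844 to 0.790 in hosts at 9 or more. In G9a cKO the same bins ran from 1.07 to 0.938, a decline at a higher level. In cDKO the first 4 bins were 1.13, 1.13, 1.13 and 1.12, with 1.08 in the highest. Library by library, from the lowest to the highest of these bins the controls went from 0.928 to 0.812 and from 0.919 to 0.768, and the cDKO libraries from 1.15 to 1.09 and from 1.11 to 1.07. These bins describe the quantity the rule used and carry no test. Just below the threshold, at 4.5 to 5 log2 RPM, density was 0.958 in controls, 1.02 in G9a cKO and 1.07 in cDKO. Just above it, at 5 to 5.5, the values were 0.928, 1.05 and 1.12, so the threshold cuts a gradual trend. Windows in loci below 0 log2 RPM stood at 1.07, 1.03 and 1.02.

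**Figure D2:**
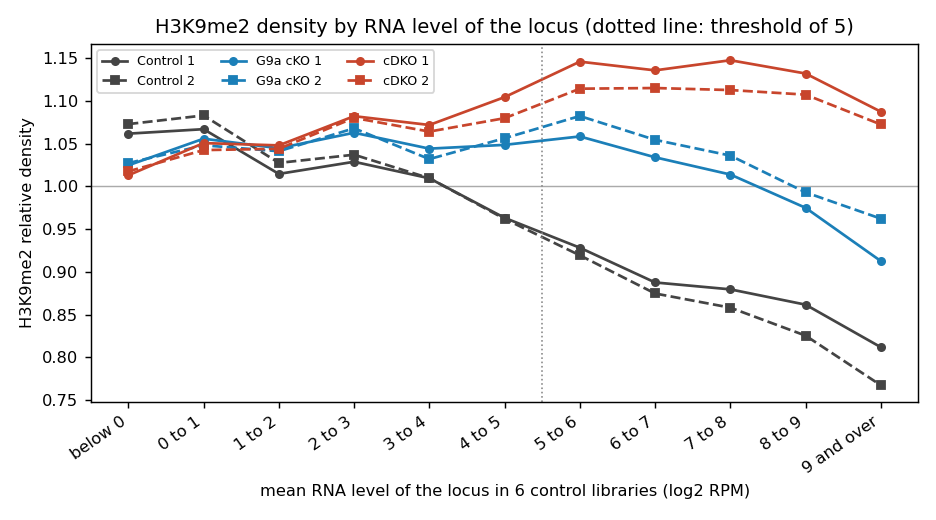
H3K9me2 relative density (vertical axis) of windows wholly inside a locus, by the mean RNA level of that locus in 6 control libraries (horizontal axis, bins of 1 log2 RPM), 1 line per library and a dotted line at the threshold of 5. Control lines descend to 0.812 and 0.768 in the highest bin, whereas the cDKO lines stay at or above 1.07 there.

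Because long genes can have many reads at a low rate of transcription, hosts were also divided by RNA per kb of their span. Of 4 equal bins, the bin with the least RNA per kb had a density that was 0.917 and 0.906 in the controls, 1.04 and 1.06 in G9a cKO, with 1.13 and 1.11 in cDKO. In the bin with the most it was 0.841 and 0.80, 0.949 and 1.02, and 1.14 and 1.10. Controls were thus lowest where transcription per length was highest, and the distance between controls and cDKO was wider there than in the lowest bin. Length alone gave no such order in the controls, which had 0.921 and 0.892 in hosts of 10 to 25 kb, 0.853 and 0.831 in those of 50 to 100 kb, and 0.924 and 0.913 in those of over 200 kb. In the mutants the shortest hosts were the highest, at 1.12 and 1.16 in G9a cKO, with 1.26 and 1.16 in cDKO.

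The depletion in controls followed the outline of the gene. Around the 1765 hosts with at least 5 member windows, flanking windows that overlap no highly transcribed locus had a mean of 1.08 in controls at 10 to 50 kb upstream of the start and 1.08 at 10 to 50 kb downstream of the end. Inside, the first 20 kb stood at 0.90, the stretch from 20 to 50 kb at 0.873 and the last 20 kb at 0.872. In G9a cKO the flanks were at 1.11 on both sides and the 3 inner stretches at 1.02, 1.04 and 1.06. In cDKO the flanks were at 1.10 and 1.11 and the inner stretches at 1.09, 1.12 and 1.17. The step at either end was thus steep in controls and shallow in G9a cKO. In both mutants density climbed from the first to the last 20 kb inside. It went from 1.01 to 1.05 and from 1.02 to 1.06 in the G9a cKO libraries. In the cDKO libraries it went from 1.09 to 1.19 and from 1.10 to 1.14.

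Measured within each library, the interior of these hosts against their own flanks had a log2 ratio of −0.29 and −0.29 in the controls, −0.11 and −0.11 in G9a cKO, with 0.02 and −0.01 in cDKO. The 3 genotypes did not overlap. The difference from control was 0.18 in G9a cKO and 0.30 in cDKO, and 0.12 between the mutants, each with an exact two-sided permutation p of 0.333, the smallest possible. This ratio was set up after the profile had been seen. The interiors comprised 23461 windows and the flanks 10593. The flanks alone had a relative density of 1.09 and 1.07 in the controls, 1.10 and 1.12 in G9a cKO, with 1.11 and 1.11 in cDKO, and they are scaled by the same library totals as the interiors.

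**Figure D3:**
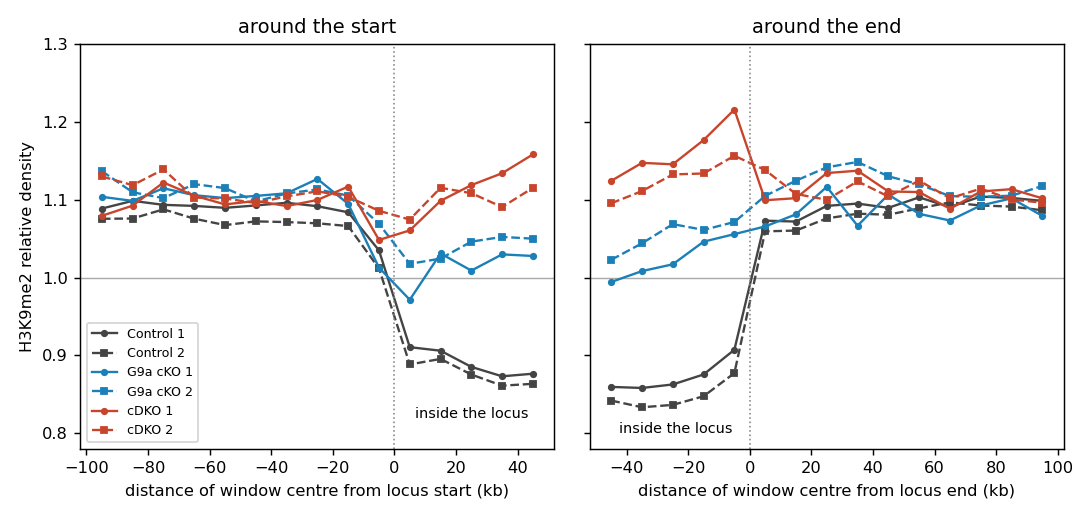
H3K9me2 relative density (vertical axis) by distance of the window centre from the start (left) and the end (right) of 1765 host loci (horizontal axes, kb along the strand of the gene), 1 line per library. All 6 lines run together outside the hosts, near 1.1, except at 5 kb before the start, where they lie at 1.01 to 1.09. Inside they separate by genotype, with the controls at or below 0.911.

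The pattern was spread over the chromosomes. Both G9a cKO libraries exceeded both controls in the member windows of 18 of 19 autosomes, the exception being chromosome 14, and both cDKO libraries did so on 19. Both cDKO libraries also exceeded both G9a cKO libraries on 19. Measured against the mean of their own chromosome instead, these counts were 19, 19 and 18. Chromosomes of 1 library are not independent samples, so the counts describe the extent of the shift and are no test of it.

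The next comparison asked which hosts carried the change. The 2562 hosts with at least 3 member windows were tested together with all other autosomal loci of that size, 6718 in all, on log2(RPM per window + 0.5), a scale that understates the change of hosts with few reads. In the controls 1989 and 2082 of the hosts lay below the autosomal mean of their library, in G9a cKO 1443 and 1283, and in cDKO 853 and 842. Median densities were 0.868 and 0.838, 0.951 and 0.998, and 1.12 and 1.10. The middle 90% of hosts spanned 0.622 to 1.18 and 0.596 to 1.16 in the controls, and 0.551 to 1.75 and 0.540 to 1.75 in G9a cKO. In cDKO the span was 0.717 to 1.72 and 0.744 to 1.55. The G9a cKO hosts were the most dispersed, in libraries with 7 and 4 reads in the median member window.

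**Figure D4:**
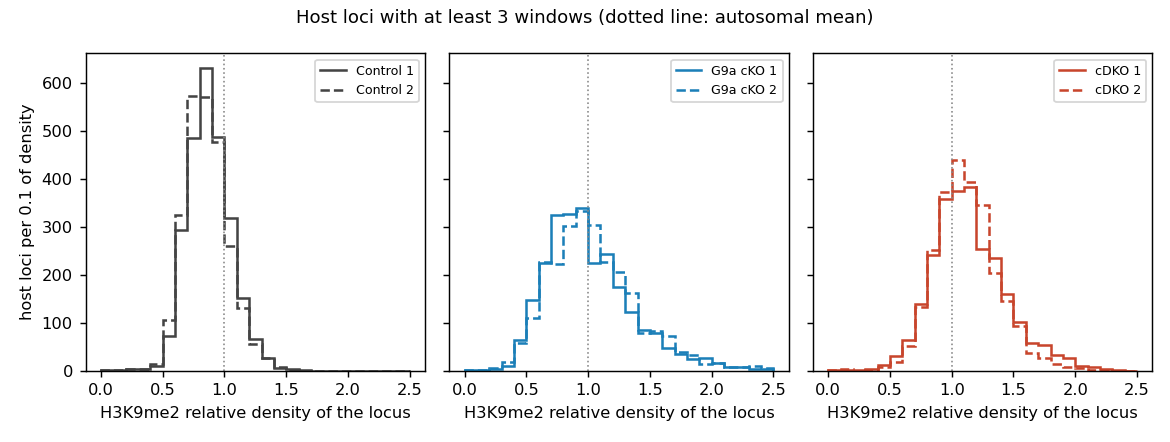
Number of host loci (vertical axis) in each 0.1 of H3K9me2 relative density (horizontal axis) for the 2562 hosts with at least 3 member windows, 2 libraries per panel, with a dotted line at the autosomal mean. The control distributions peak between 0.7 and 0.9, those of G9a cKO are broad with a tail to the right, and those of cDKO peak between 1.0 and 1.2.

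Both cDKO libraries exceeded both controls at 1856 of the 2562 hosts (72.4%), where 51.1% of all loci tested did so, and they were below both controls at 123 hosts (4.80%), against 18.2% of all loci. Both G9a cKO libraries exceeded both controls at 1235 hosts (48.2%), against 39.2% of all loci, and were below them at 354 (13.8%), against 25.4%. Among the 4156 loci that are not hosts, 38.0% were higher in cDKO and 26.5% lower. The excess of higher over lower hosts was thus larger in cDKO than in G9a cKO as a count, and this difference between the counts was not tested.

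By limma, with p-values adjusted by Benjamini-Hochberg over all 6718 loci, 301 hosts were higher in G9a cKO, or 11.7% of the hosts against 10.4% of all loci tested. Another 21 were lower, or 0.82% against 3.74%. In cDKO 162 hosts were higher, or 6.32% against 3.72% of all loci, and 0 were lower, against 0.149%. The unadjusted p was under 0.05 at 13 hosts lower in cDKO (0.507%, against 4.94% of all loci), and limma with voom precision weights called 18 (5.28% of all loci that way). In G9a cKO voom weights called 715 hosts higher and 63 lower, against 23.2% and 9.75% of all loci, and in cDKO 1285 higher, against 31.1%. The median log2 fold change of the hosts was 0.18 in G9a cKO and 0.35 in cDKO, beside 0.08 and 0.18 over all loci tested. With each library centred on its own median the hosts' median in cDKO was 0.19 and no host was called there.

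These calls are close to the limit of 2 libraries against 2. The lowest adjusted p of any host in cDKO was 0.0466, and no host was called in cDKO without control 1, control 2, cDKO 1 or cDKO 2, and none in G9a cKO, higher or lower, without control 1 or control 2. Without G9a cKO 1 or G9a cKO 2, which are no part of that contrast but share its estimate of spread, 676 and 680 hosts were called higher in cDKO (26.4% and 26.5% of hosts, against 16.2% of all loci each time). Without the same libraries 50 and 35 hosts were called lower in G9a cKO (1.95% and 1.37%, against 5.69% and 5.55% of all loci). In the direct comparison of cDKO with G9a cKO limma called 0 hosts in either direction (0.0% of all loci tested each way), while the unadjusted p was under 0.05 at 411 higher and 81 lower in cDKO (16% and 3.16% of hosts, against 13.1% and 6.64% of all loci), and voom weights called 29 and 21 (0.923% and 1.53% of all loci).

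Single windows were mostly too shallow to test. By limma on the deposited log2 values of 255057 windows with a read, 485 of 28180 member windows (1.72%) were higher in G9a cKO, close to the 1.75% of all windows, and 5 were lower, against 0.102%. In cDKO 0 member windows were called by limma (0.0% of all windows each way), with an unadjusted p under 0.05 at 2762 higher and 237 lower, against 5.43% and 3.57% of all windows. Testing all windows without the read filter called 548 members higher and 9 lower, or 1.94% and 0.0319% of members, against 7.39% and 0.158% of all windows. The 485 windows fell to 201 without control 1 (0.979% of all windows), to 265 without control 2 (1.17% of all windows) and to 0 without G9a cKO 2, cDKO 1 or cDKO 2. Without G9a cKO 1, 447 member windows were called lower in G9a cKO (1.59%, against 3.83% of all windows), and 0 without any other single library. In cDKO 40 were called higher without control 1, or 0.142% of members against 0.566% of all windows.

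Among the hosts with the most RNA, Dnmt1, the maintenance DNA methyltransferase, stood first at 13.11 log2 RPM in controls (chr9:20907206-20960182, GRCm38). Its 5 member windows held 3.94 and 3.52 RPM per window in the controls, 3.77 and 5.05 in G9a cKO, with 5.69 and 4.89 in cDKO. Both cDKO libraries lay above both controls, and the log2 difference of 0.45 (SE 0.17) did not pass the test (limma adjusted p = 0.125). Rdx, which encodes the actin-membrane linker radixin, had 2.65 and 2.39 in the controls, 2.15 and 2.70 in G9a cKO, with 4.45 and 4.07 in cDKO. Its cDKO libraries lay above all the others, by 0.66 over the controls (SE 0.16, limma adjusted p = 0.0649), and the difference of cDKO from G9a cKO had an adjusted p of 0.115. Fip1l1, a factor in mRNA polyadenylation, had 2.72 and 2.49, 2.26 and 2.70, and 3.83 and 4.04 RPM per window. As at Rdx, the cDKO libraries lay above all the others while G9a cKO overlapped the controls.

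Nlrp5, a component of the maternal complex beneath the oocyte cortex, had 2.33 and 2.69 RPM per window in the controls, 3.02 and 3.79 in G9a cKO, with 3.02 and 3.4 in cDKO. Spin1, a reader of histone methylation, had 3.63 and 3.74, 4.63 and 4.51, and 4.29 and 4.25. In both genes each mutant library exceeded each control by a small margin that did not pass the test (log2 differences of 0.19 to 0.37). Mdm4, an inhibitor of p53, had 2.84 and 2.65, 3.23 and 4.51, and 3.34 and 3.99. Bub1b, of the spindle checkpoint, and Trip12, a ubiquitin ligase, were above the controls in both cDKO libraries but not in both G9a cKO libraries, and neither passed the test in either mutant. None of these 8 hosts was called, and each of the 8 had a positive fitted difference in cDKO, from 0.19 to 0.66.

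The 6 hosts with the most member windows were all without a call, although hosts over 200 kb as a whole stood at 0.924 and 0.913 of the autosomal mean in controls and at 1.11 and 1.09 in cDKO. Ptprt, a receptor tyrosine phosphatase with 113 member windows, had 3.96 and 4.26 RPM per window in the controls, 4.12 and 4.19 in G9a cKO, with 3.73 and 4.00 in cDKO. All 6 libraries overlapped, on 525 to 9203 reads each. Erc2, a scaffold of the presynaptic zone, had 4.17 and 4.05, 3.49 and 3.91, and 3.68 and 3.93, and Nckap5 had 4.31 and 4.15, 3.28 and 4.13, and 4.23 and 3.87. Auts2 had 3.48 and 3.74, 4.02 and 3.26, and 4.11 and 4.17, and Celf2, an RNA-binding protein gene, had 3.02 and 3.09, 3.41 and 4.11, and 4.23 and 3.73. Grm8, a glutamate receptor gene, had 3.28 and 3.33, 3.19 and 3.02, and 3.64 and 3.76. The cDKO libraries were above the controls in Auts2, Celf2 and Grm8 and below them in Erc2. The largest fitted difference was 0.33 (SE 0.14, limma adjusted p = 0.163) for Celf2, near the median of 0.35 over all hosts.

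A few hosts were rich in H3K9me2 already in the controls. Plxna2, a semaphorin receptor gene with 6.28 log2 RPM of RNA, had 5.19 and 5.85 RPM per window in the controls, 4.90 and 5.08 in G9a cKO, with 4.06 and 4.81 in cDKO. Dpp6, an auxiliary subunit of potassium channels, had 5.38 and 5.47, 5.61 and 5.11, and 4.81 and 4.90. Col6a3, a chain of collagen VI, had 5.33 and 5.46, 3.69 and 5.15, and 4.56 and 4.71, and Plxna4 had 5.20 and 5.41, 3.98 and 4.36, and 4.2 and 5.05. In all 4 both cDKO libraries lay below both controls, by 0.15 to 0.29 on the log2 scale, and none passed the test (limma adjusted p of 0.197 to 0.437). They were picked as the highest in controls, so some fall towards the other hosts can follow from that choice.

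To avoid that effect of selection, hosts were divided into 4 equal bins by control 2 and read in the other libraries. From the lowest to the highest bin the median relative density of control 1 was 0.710, 0.82, 0.908 and 1.05. For the G9a cKO libraries the lowest bin had 0.753 and 0.811 and the highest 1.16 and 1.19. For cDKO the lowest bin had 0.956 and 0.989 and the highest 1.21 and 1.19. Hosts low in controls thus stayed the lowest in both mutants, and the range from the lowest to the highest bin was narrower in cDKO than in control 1. Across the 2562 hosts Spearman's rho between the 2 controls was 0.821, between the G9a cKO libraries 0.641 and between the cDKO libraries 0.545, values that also depend on depth. Between control and mutant libraries it was 0.419 to 0.494 for G9a cKO and 0.327 to 0.362 for cDKO.

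Of the 4 hosts with the least H3K9me2 per window in controls, a pair held very few reads. Srp54c had 18 and 48 reads over 17 windows in the controls and 1 to 10 in the mutant libraries. The locus named Slc26a6, after an anion exchanger gene, spans 59 kb. It had 7 and 13 reads over 5 windows in the controls and 0 to 4 in the mutant libraries. Nlrp9b, of the Nlrp family, had 0.684 and 0.743 RPM per window in the controls, 1.85 and 1.51 in G9a cKO, with 1.37 and 1.37 in cDKO. Gm4767 had 0.785 and 0.821, 2.13 and 1.91, and 1.81 and 1.75, and rose in G9a cKO by 0.95 (SE 0.16, limma adjusted p = 0.018) and in cDKO by 0.81 (SE 0.16, adjusted p = 0.0475). Nlrp9b rose in G9a cKO by 0.84 (SE 0.17, adjusted p = 0.0254). These 4 were picked as the lowest in the same controls, so part of any rise can follow from that choice, which was not tested. Srp54c and Nlrp9b have close copies in the genome, so their reads and those of like clusters are uncertain.

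The largest rises in G9a cKO were more than 2-fold. The largest of any host, 1.87 on the log2 scale, was at a locus without a gene name that lies within the span of Map3k4 on the other strand (chr17:12232481-12271184). Its 3 windows are also among the 8 of Map3k4, so the calls of both rest in part on the same reads. The hosts described next are the largest among those with a gene name. They were picked by size, so part of their rise can follow from that choice, which was not tested. Zufsp, which encodes a ubiquitin protease, had 3.26 and 3.21 RPM per window in the controls, 11.1 and 11.4 in G9a cKO, with 5.03 and 7.09 in cDKO (chr10:33919172-33951393). The G9a cKO libraries stood above the others, with a rise of 1.66 (SE 0.17, limma adjusted p = 0.0111). Map3k4, a kinase of the stress-activated MAP kinase cascade, had 3.74 and 3.54, 11.9 and 9.58, and 6.89 and 6.38 (chr17:12227521-12318969), a rise of 1.43 in G9a cKO (SE 0.15, adjusted p = 0.0111) and of 0.78 in cDKO (SE 0.15, adjusted p = 0.0473). The locus named Peg3, after an imprinted gene expressed from the paternal allele, spans 47.9 kb (chr7:6703892-6751793). It had 3.87 and 3.36, 11.4 and 9.47, and 6.09 and 7.04. Its rise was 1.41 in G9a cKO (SE 0.16, limma adjusted p = 0.0111) and 0.78 in cDKO (adjusted p = 0.0498). In these 3 genes the cDKO libraries lay between the controls and G9a cKO, and their difference from G9a cKO did not pass the test (adjusted p of 0.0987 to 0.136).

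Smarcc2, a subunit of SWI/SNF remodelling complexes, rose in both mutants. It had 3.03 and 2.70 RPM per window in the controls, 7.00 and 10.2 in G9a cKO, with 8.51 and 6.02 in cDKO (chr10:128454900-128490173), with rises of 1.42 (SE 0.23, limma adjusted p = 0.0171) and 1.19 (SE 0.23, adjusted p = 0.0473). Gm12130 had 2.41 and 3.03, 7.54 and 7.81, and 6.00 and 5.67, and rose by 1.35 in G9a cKO (adjusted p = 0.0111) and by 0.98 in cDKO (adjusted p = 0.0466). Neither gene's mutant libraries overlapped its controls. These rises also rest on few reads in G9a cKO, with 39 and 34 for Smarcc2, 42 and 26 for Gm12130 and 62 and 38 for Zufsp.

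Among named hosts the largest rises in cDKO were at Gm20388, Smarcc2, Lrp1, Letm1 and Slc11a2, which were likewise picked by size. Lrp1, an endocytic receptor of the low-density lipoprotein receptor family, had 3.46 and 2.77 RPM per window in the controls, 4.85 and 6.09 in G9a cKO, with 8.92 and 6.51 in cDKO (chr10:127538003-127621148), a rise of 1.18 (SE 0.20, limma adjusted p = 0.0466). Letm1, of the inner mitochondrial membrane, had 4.26 and 3.35, 7.81 and 6.31, and 7.40 and 10.4. Slc11a2, an iron transporter, had 5.30 and 3.71, 7.90 and 10.2, and 10.4 and 9.92. Gm20388 had 2.88 and 2.96, 5.56 and 4.51, and 7.74 and 7.44, the largest rise of the named hosts in cDKO at 1.24 (SE 0.14, adjusted p = 0.0466). In all 4 the G9a cKO libraries also lay above the controls, and Gm20388, Letm1 and Slc11a2 passed the test there too (adjusted p of 0.0247 to 0.0467).

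Falls were few, and limma called 21 of them in G9a cKO and 0 in cDKO. Dnajc15, a mitochondrial co-chaperone, had 3.79 and 4.54 RPM per window in the controls, 2.42 and 1.58 in G9a cKO, with 3.05 and 2.52 in cDKO, a fall in G9a cKO with a log2 difference of −0.92 (SE 0.21, limma adjusted p = 0.0365). Lcp1, an actin-bundling protein, had 4.59 and 3.82, 2.27 and 2.1, and 3.03 and 3.19 (adjusted p = 0.0217). Esr2, oestrogen receptor beta and also a granulosa cell marker, had 3.72 and 3.72, 1.83 and 2.16, and 2.67 and 2.87 (adjusted p = 0.0248). In these 3 both mutants lay below the controls, with G9a cKO the lowest. Rras2, a small GTPase, had 4.08 and 3.46, 2.15 and 1.92, and 3.92 and 2.92. Ints10, a subunit of the Integrator complex that processes small nuclear RNAs, had 3.31 and 3.43, 1.79 and 1.80, and 4.45 and 3.90, so that its cDKO libraries were above the controls. The G9a cKO values rest on few reads, with 10 and 6 for Ints10, 18 and 7 for Dnajc15 and 17 and 12 for Esr2. They rest on 32 and 17 for Rras2 and 38 and 21 for Lcp1. With reads thinned to the smallest total, 0 hosts were called lower in G9a cKO, against 9 of all 6718 loci.

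**Figure D5:**
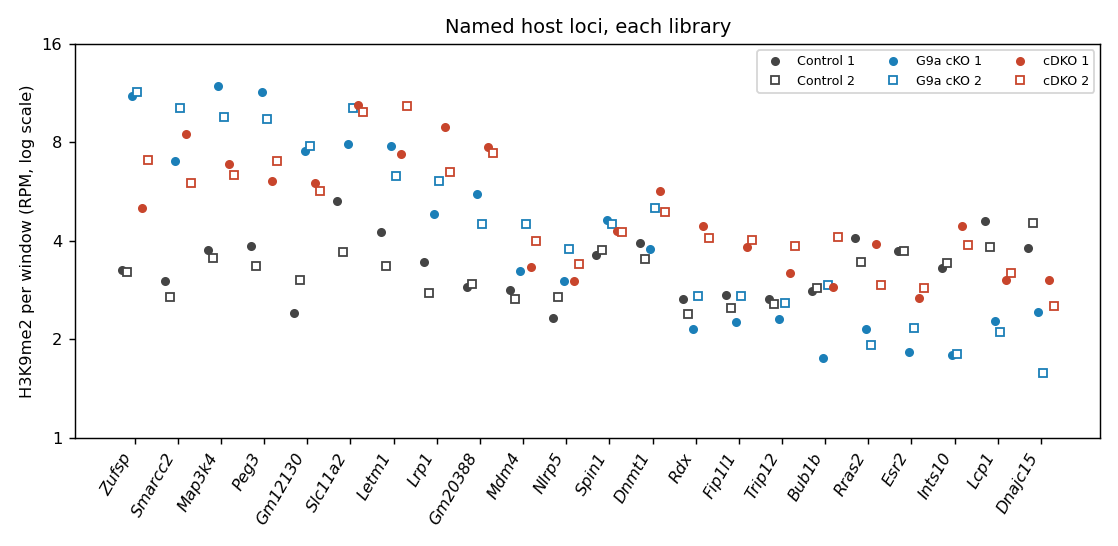
H3K9me2 per 10-kb window (vertical axis, RPM on a log scale) in each library for the 8 hosts with the most RNA and the hosts with the largest called changes (horizontal axis, ordered by the ratio of G9a cKO to control). On the left the 2 G9a cKO points of Zufsp lie at 11.1 and 11.4 against 3.26 and 3.21 in the controls, and on the right those of Dnajc15 lie below its controls.

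Hosts were then grouped by function, with lists of genes written in the knowledge of earlier results. Over all hosts 11.7% were called higher in G9a cKO and 6.32% in cDKO, against 10.4% and 3.72% of all loci tested. The counts of called hosts in each list below stand beside those shares, and no list was tested against them. Among H3K9 methyltransferases, demethylases and readers, 9 of the 19 genes found in the RNA table were hosts and 5 had at least 3 member windows. Of these 5, 1 was called higher in each mutant, none was called lower, and the median log2 difference was 0.34 in G9a cKO and 0.50 in cDKO, beside 0.18 and 0.35 over all hosts. The gene was Atf7ip, a partner of the H3K9 methyltransferase SETDB1, picked out after its values were seen, with 3.04 and 2.83 RPM per window in the controls, 4.43 and 4.81 in G9a cKO, with 4.84 and 5.43 in cDKO (limma adjusted p = 0.031 and 0.0466). Ehmt1, the gene for GLP, had 3.21 and 3.10, 3.33 and 3.69, and 4.01 and 4.25 over its own body, and Cdyl, a chromodomain protein, had 3.93 and 3.71, 2.87 and 3.61, and 3.90 and 4.10. Neither Ehmt1 nor Cdyl passed the test, though both cDKO libraries of Ehmt1 were above all others.

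Of the genes for DNA methylation, 3 had at least 3 windows, and none was called in either mutant. Besides Dnmt1 these were Dnmt3a, the de novo methyltransferase of the growing oocyte, with 4.10 and 4.21 RPM per window in the controls, 3.88 and 5.14 in G9a cKO, with 4.53 and 4.78 in cDKO, and Tet3, the oocyte's methylcytosine dioxygenase, with 3.4 and 3.64, 4.85 and 5.51, and 5.74 and 4.84. In all 3 both cDKO libraries lay above both controls, as they did at 72.4% of all hosts.

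Of 9 hosts for transcription elongation and H3K36 methylation, 1 was called higher in G9a cKO and 1 in cDKO, 0 were called lower, and both cDKO libraries were above both controls at 8, against 72.4% of all hosts. The called gene was Rtf1, of the PAF elongation complex, again named after its values were seen, with 2.84 and 2.65 RPM per window in the controls, 4.31 and 3.79 in G9a cKO, with 4.64 and 4.89 in cDKO (limma adjusted p = 0.047 and 0.0466). Kdm2b, an H3K36 demethylase, had 3.11 and 2.82, 3.69 and 4.79, and 5.54 and 4.37, and Nsd1, an H3K36 methyltransferase, had 2.87 and 2.99, 2.21 and 2.98, and 3.95 and 3.19. Neither of these was called.

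Of 2 hosts for H3K4 methylation, the gene listed as Mll2 was called higher in G9a cKO, with 3.55 and 3.21 RPM per window in the controls, 9.33 and 6.61 in G9a cKO, with 7.16 and 5.67 in cDKO (log2 difference 1.11, limma adjusted p = 0.0201). The other, Mll3, had 2.78 and 2.5, 3.13 and 3.52, and 3.51 and 4.07, with no overlap between controls and mutants. At 6 of 9 Polycomb hosts both cDKO libraries were above both controls and at 1 below them, against 72.4% and 4.8% of all hosts. None of the 9 was called in G9a cKO, where the list's median difference was −0.07. In cDKO, where the median was 0.47, 1 was called higher. That gene was Scmh1, with 3.01 and 2.90, 3.63 and 3.76, and 4.88 and 4.78 (adjusted p = 0.0466 in cDKO). Jarid2, a partner of Polycomb repressive complex PRC2, had 2.96 and 3.13, 2.86 and 2.89, and 4.15 and 2.91, so that G9a cKO lay slightly below the controls and cDKO overlapped them.

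Of 6 oocyte and maternal-effect hosts, 2 were called higher in G9a cKO and 0 in cDKO, against 11.7% and 6.32% of all hosts. At 4 of the 6 both cDKO libraries were above both controls, against 72.4% of all hosts. The locus named Figla, after a transcription factor that drives zona pellucida genes, spans 108 kb, and its values are not of the gene alone. It had 4.38 and 4.39 RPM per window in the controls, 7.16 and 6.76 in G9a cKO, with 5.51 and 5.31 in cDKO (limma adjusted p = 0.0247 and 0.175). Kit, the receptor for KIT ligand from granulosa cells, had 3.28 and 3.70, 5.77 and 5.41, and 4.97 and 5.85 (adjusted p = 0.0321 and 0.0639). In both genes all 4 mutant libraries lay above both controls.

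Of 14 hosts for meiosis, cohesin and the spindle, 2 were called higher in G9a cKO and 1 in cDKO, 0 were called lower, and both cDKO libraries exceeded both controls at 13, against 72.4% of all hosts and 51.1% of all loci. The called genes, named after their values were seen, were Sycp1, of the synaptonemal complex, and Smc1b, of meiotic cohesin. Sycp1 had 2.88 and 3.10 RPM per window in the controls, 6.22 and 6.88 in G9a cKO, with 4.43 and 3.48 in cDKO (limma adjusted p = 0.0134 in G9a cKO). Smc1b had 2.51 and 2.47, 4.13 and 4.06, and 4.35 and 4.25 (adjusted p = 0.0229 and 0.0466). Stag1, a cohesin subunit, had 2.86 and 2.75, 4.18 and 3.63, and 3.95 and 3.64, with mutants above controls, and Mad1l1, of the spindle checkpoint, had 3.85 and 3.67, 3.39 and 3.81, and 4.34 and 4.54, and neither was called.

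Of 11 hosts for storage and decay of maternal mRNA none was called in either mutant, and both cDKO libraries were above both controls at 8 and below them at 1, near the 72.4% and 4.8% of all hosts. The locus named Zfp36l2, after a gene that promotes mRNA decay, spans 282 kb, and its values are not of the gene alone. It had 3.25 and 3.27 RPM per window in the controls, 3.81 and 3.87 in G9a cKO, with 4.84 and 4.17 in cDKO. Tnrc6b, of the microRNA silencing complex, had 3.30 and 3.27, 3.70 and 3.52, and 4.19 and 3.89. Both loci had every mutant library above every control.

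Finally the RNA of the hosts was set beside their H3K9me2. Of the 4068 hosts, 3892 kept a mean of at least 5 log2 RPM in G9a cKO and 3886 in cDKO, and the median log2 change of host RNA against the controls of the same line was −0.0038 and −0.0385. As a description across the 2562 hosts of at least 3 windows, which share libraries and depth, Spearman's rho between control RNA and H3K9me2 density was −0.209 in controls, −0.122 in G9a cKO and −0.0341 in cDKO. Between the RNA change and the H3K9me2 change of a host, rho was −0.0041 in G9a cKO and −0.0654 in cDKO. Hosts that gained most H3K9me2 relative to the genome were thus not ordered by their change of RNA.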

How the data were processed

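The authors deposited 1 table of H3K9me2 in 10-kb windows and 1 of RNA per transcribed locus, both as log2 values. That these are log2 RPM was inferred from the values: all were whole multiples of 1 read (tolerance 0.02), a feature without reads standing at 0.9 read. Bowtie2, HISAT2 2.1.0, Trim Galore, Bismark 0.19.0 and build GRCm38 are named in the submitters' processing notes, without roles. In the 2 tables, 4 columns of per-sample values matched no sample and were not used. Library totals come from the step between values, and counting error limits single windows.

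Relative densities used linear RPM with empty windows at 0, compared by exact permutation. Loci with at least 3 windows were fitted on log2(mean RPM per window + 0.5), and windows on the deposited log2 values, with limma 3.58.1 (trend, robust; R 4.3.3), 6 libraries in 1 fit and Benjamini-Hochberg adjustment at 0.05; both were tested on simulated data for cDKO against control, where the locus fit recovered part of the planted changes and the window fit did not, so a lack of window calls does not show a lack of change. This scale understates changes of low loci. Groups came from the labels. Alternatives changed the RNA threshold, filters, pseudocount, scaling, depth, weights and libraries.

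The members and the gene lists were chosen with earlier results of these data known. Named hosts, all among loci with a gene name, are the 8 with most RNA, the 6 with most windows, the 4 highest and 4 lowest in control H3K9me2 (at least 5 windows), the 5 largest called changes each way per contrast without overlap, and the 2 longest of each list. Every called host of a list was named as well, a choice that rests on the outcome. Windows on sex chromosomes were left out as members. Python 3.11.15, pandas 2.3.3, numpy 2.4.6 and scipy 1.17.1 were used.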

Additional observations from a re-analysis of the deposited data

Results flagged for a closer look

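At 4 named hosts the mutants moved to opposite sides of the controls: both G9a cKO libraries lay on 1 side of both controls and both cDKO libraries on the other. At Ints10 the log2 difference of cDKO minus G9a cKO was 1.02 (limma adjusted p = 0.0812), with 3.31 and 3.43 RPM per window in the controls, 1.79 and 1.80 in G9a cKO, with 4.45 and 3.90 in cDKO. At Grm8, a glutamate receptor gene with 85 member windows, it was 0.22 (limma adjusted p = 0.361), with 3.28 and 3.33, 3.19 and 3.02, and 3.64 and 3.76. At Slc26a6 it was 0.78 (limma adjusted p = 0.114) and at Srp54c, in the other direction, −0.39 (limma adjusted p = 0.275), and both rest on 10 reads or fewer in every mutant library. None of the 4 differences passed the test.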

How the results depend on the processing

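Depth and number limit these results: 2 libraries a group cannot give an exact p below 0.333. No paired analysis was possible because the labels number the H3K9me2 libraries singly and give no pairs. Relative densities kept their direction under every alternative run. With a threshold of 4 the differences from control were 0.20 in G9a cKO and 0.30 in cDKO, and with 6 that of cDKO was 0.38. Leaving out 1 library gave 0.21 to 0.25, 0.33 to 0.36 and, between mutants, 0.10 to 0.14. The mean log2 ratio of members to silent gene bodies was −0.01 and became 0.04 without control 1 and 0.0492 without control 2, ranging from −0.0552 to 0.0492. That to windows outside loci was 0.08, became −0.0019 in windows with 5 or more reads, and ranged from 0.03 to 0.13 with 1 library left out. Interiors against flanks of 50 to 100 kb, chosen after seeing the data, gave 0.20 and 0.31, and those of 10 to 50 kb with 1 library left out gave 0.17 to 0.18, 0.28 to 0.31 and 0.11 to 0.13.

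Counts of calls moved widely, and so did those over all loci or windows tested. Without a filter 1330 of 28237 member windows were called higher in G9a cKO, a lower share than 28289 of all 272158 windows. In that contrast shares were close for centred windows (1018 of 28180 members, 8920 of 255057 in all). They were also close for thinned hosts (41 of 2562, against 112 of 6718 loci). With at least 5 windows 418 of 1765 hosts were called higher in cDKO, a higher share than 615 of 4404 loci. The 301 hosts higher in G9a cKO became 0 with loci of at least 1 window, 715 with voom, 41 with thinned reads and 0 to 371 with 1 library left out. The 21 lower became 0, 63, 0 and 0 to 50. The 162 higher in cDKO became 0 with at least 1 window, 418 with at least 5, 1285 with voom, 0 thinned, 0 centred and 0 to 680 with 1 library left out. The 0 lower in cDKO became 1 with at least 5 windows, 18 with voom and 0 to 1. Between mutants, 0 higher became 1 with at least 5 windows, 29 with voom and 0 to 19, and 0 lower became 21 with voom and 0 to 3. Of member windows, the 485 higher in G9a cKO became 1330 without a filter, 270 with 20 reads, 0 on log2(RPM + 0.5), 131 thinned, 1018 centred and 0 to 599 with 1 library left out. The 5 lower became 113, 0, 0 and 1, and 0 to 447. In cDKO 0 higher became 548 without a filter and 0 to 40, and 0 lower became 9. Between mutants 0 lower became 0 to 10. The largest called changes of named hosts kept their direction under every alternative run, with limma adjusted p from 1.44e-24 to 0.153 for Map3k4 in G9a cKO and from 3.14e-16 to 0.379 for Lrp1 in cDKO. The cause was not tested.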

Other observations

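Over all hosts with at least 3 member windows, 117 (4.57%) had both G9a cKO libraries below both controls and both cDKO libraries above them, and 17 had the opposite arrangement. Among the other loci tested, 118 (2.84%) had the first arrangement. The opposite arrangement was not counted there, so the 17 hosts cannot be set against a share of other loci. The 2 arrangements use the same controls and were not tested against each other.

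Windows that cross the edge of a locus (39927 windows) were not members and stood at 1.03 and 1.02 of the autosomal mean in the controls, 1.10 and 1.13 in G9a cKO, with 1.10 and 1.08 in cDKO. The other windows wholly inside loci (40047 windows) were neither members nor in the silent annotated class. Some of them lay in loci below 0 log2 RPM that the silent class left out. They stood at 1.01 and 1.02, 1.06 and 1.05, and 1.07 and 1.06.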
